A study of Mus musculus with 12 samples.

Results

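This report describes the histone genes of activated mouse B cells in which both copies of the gene for CTCF were floxed, so that Cre can delete them. CTCF is a zinc finger protein that binds DNA and shapes chromatin loops. The members were all rows of the deposited table whose Ensembl identifier carries, in GENCODE M21, a symbol starting with Hist1h, Hist2h, Hist3h or Hist4h (the clustered genes), plus the 7 variant genes H2afz, H2afv, H2afy, H3f3a, H3f3b, H1f0 and H1fx. This gave 62 of the 12699 rows, of which 55 were clustered and 7 were variant genes, and 15 further annotated genes that meet the rule were not analysed here. The clustered members were 5 H1, 13 H2A, 13 H2B, 11 H3 and 13 H4 genes. On GRCm38, 45 of them lie between 21715763 and 23764406 on chromosome 13, 7 lie on chromosome 3, 2 on chromosome 11 and 1 on chromosome 6.

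RNA was sequenced in 12 libraries of hCD2+ B cells, sorted after 48 h of culture. In CTCFfl/fl; AID-CRE TG/+ cells both Ctcf alleles can be deleted, and in CTCFfl/+; AID-CRE TG/+ cells, the control, 1 allele is floxed and 1 is intact. Both genotypes thus carried the same transgene, a bacterial artificial chromosome that expresses Cre recombinase and a human CD2 reporter under the control of the gene for activation-induced deaminase, so that deletion starts only after a B cell is activated. Resting splenic B cells of mice aged 8 to 12 weeks were either grown beside T cells that anti-CD3 (5 µg/ml) and anti-CD28 (1 µg/ml) had activated, called CD3/CD28 here, or cultured with LPS (50 µg/ml) and IL4 (5 ng/ml), called LPS/IL4. These doses are those of the labels, and the methods of the paper give other doses for anti-CD28, LPS and IL4. Each of the 4 groups had 3 libraries, each made from a pool of 2 to 3 mice, so p-values measure the spread between such pools. The 2 cultures were treated as separate batches in the tests, a choice made for this report, and genotypes were compared only within a culture.

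Clustered histone genes encode the core and linker histones that package newly made DNA. They lack introns in their coding parts, are transcribed mainly in S phase, and most of their mRNAs end in a conserved stem-loop, bound by SLBP, in place of a poly(A) tail. Variant, or replacement, histone genes lie outside the clusters, give polyadenylated mRNAs and are expressed through the cell cycle, and their proteins replace core histones at particular places in chromatin. Activated B cells divide fast, so both kinds of histone are in demand.

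The libraries were made from RNA purified on poly-T beads in 2 rounds, so the values of clustered genes count only the reads that survived this selection and do not give the amount of the stem-loop mRNAs. The stem-loop was present in the transcript models of 45 of the 77 annotated genes of the rule, 38 of them in the table, in 7 forms that all close 6 base pairs, and in none of the variant genes. The sites below, 5′ to 3′ on GRCm38 with the stem-loop in capitals, are shown because they mark the end at which these mRNAs are usually cut. They belong to the clustered genes named below and to 1 example of each of the other forms.
Hist2h2aa2, chr3:96239781-96239804, minus strand: aaaaaGGCTCTTTTCAGAGCCacc
Hist1h2bg, chr13:23571838-23571861, plus strand: ccaaaGGCTCTTTTCAGAGCCacc
Hist1h1d, chr13:23555782-23555805, plus strand: caaacGGCTCTTTTCAGAGCCacc
Hist1h2ap, chr13:21833026-21833049, minus strand: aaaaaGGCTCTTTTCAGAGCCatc
Hist1h3e, chr13:23561900-23561923, minus strand: aaaacGGCTCTTTTAAGAGCCacc
Hist1h4d, chr13:23581945-23581968, plus strand: ccaaaGGCCCTTTTCAGGGCCact
Hist1h4i, chr13:22040963-22040986, minus strand: ttaaaGGCCCTTTTTAGGGCCacc
Hist1h4b, chr13:23757361-23757384, plus strand: caaaaGGTCCTTTTCAGGACCact
Hist1h4a, chr13:23760797-23760820, minus strand: ccaaaGGCCCTTCTCAGGGCCgcc
Hist2h2ac, chr3:96220415-96220438, minus strand: aaaaaGGCTCTTTTTAGAGCCacc

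The first form was the commonest, with 26 genes, and the form of Hist1h4d followed with 7. The annotated transcripts run on for 3 bases (Hist1h2ap) to 4884 bases (Hist1h1d) past the stem-loop. Such extended models describe read-through transcripts that can be polyadenylated.

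Across the libraries 6934344 to 11227004 reads were recovered in CD3/CD28 and 23469188 to 28130440 in LPS/IL4. Ctcf, the deleted gene, had 75.9, 76.3 and 72.0 CPM (read counts scaled to library size) in CTCFfl/fl cells against 138, 127 and 126 CPM in CTCFfl/+ cells of CD3/CD28, and 63.1, 69.4 and 78.3 CPM against 134, 143 and 146 CPM in LPS/IL4. The log2 fold change, CTCFfl/fl over CTCFfl/+ throughout, was -0.80 in CD3/CD28 (limma, adjusted p = 0.00012) and -1.01 in LPS/IL4 (adjusted p = 0.00034). The 8 B cell markers summed to 7799 to 8244 CPM in CTCFfl/fl and 6763 to 7857 CPM in CTCFfl/+ cells of CD3/CD28. Of them 4 were called higher and none lower, beside 9.88% of all tested genes called higher. They were Cr2 (18.3 against 8.75 CPM on average), Cd79a (961 against 756 CPM), Cd79b (650 against 552 CPM) and Cd22 (1167 against 1017 CPM). Of 5 measured plasma cell markers 2 were called higher there, Prdm1 (32.65 against 13.3 CPM) and Sdc1 (15 against 8.36 CPM), and none lower, beside the same 9.88%. The log2 fold changes of 2 of the 5 were below 0. Irf4 was lower in all CTCFfl/fl libraries but not called (149.3, 160.2 and 137.5 against 168.4, 160.8 and 188.9 CPM). The 5 markers summed to 357.9 to 429.8 CPM in CTCFfl/fl and 399.9 to 424.6 CPM in CTCFfl/+ cells, which overlapped. The 14 T cell markers summed to 184.4 to 219.4 CPM in CTCFfl/fl and 171.6 to 192.5 CPM in CTCFfl/+ cells, most of it Lck and Ctla4. Of the 9 tested T cell markers 2 were called higher in CTCFfl/fl cells, Cd3g (2.72 against 0.968 CPM on average) and Ctla4 (56.7 against 35.8 CPM), and 1 lower, Thy1 (13.9 against 35.0 CPM). Cd3d, Cd3e and Trbc2 reached at most 0.178 CPM in any library of CD3/CD28, and at most 3.05 CPM (Cd3e) in LPS/IL4, a culture to which no T cells were added. Of 8 myeloid markers 4 were measured, and they summed to 22.9 to 30.2 CPM in CTCFfl/fl and 5.71 to 12.9 CPM in CTCFfl/+ cells of CD3/CD28. Of the 3 tested there 2 were called higher, Itgam (19.3 against 5.21 CPM on average) and Tyrobp (4.7 against 1.3 CPM), and none lower. The parts of these other cells and of plasma cells in the histone values were not tested.

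Among the members, the variant histone genes gave nearly all reads. Their sum was 1831, 1732 and 1835 CPM in CTCFfl/fl against 1685, 1675 and 1643 CPM in CTCFfl/+ cells of CD3/CD28, a mean of 1799 ± 58.0 against 1668 ± 22.2 CPM (SD, n = 3 each). The CTCFfl/fl libraries were all higher, at 107.9% of the CTCFfl/+ mean. In LPS/IL4 the variant sum was 1654, 1818 and 1664 CPM in CTCFfl/fl and 1647, 1741 and 1992 CPM in CTCFfl/+ cells, and the groups overlapped.

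The 55 clustered genes together gave 64.2, 131.3 and 130.4 CPM in CTCFfl/fl against 140.8, 131.4 and 159.6 CPM in CTCFfl/+ cells of CD3/CD28, a mean of 108.6 ± 38.5 against 144 ± 14.4 CPM. The CTCFfl/fl libraries were all lower, at 75.4% of the CTCFfl/+ mean, but the nearest pair touched and most of the gap came from CTCFfl/fl replicate 1. Without this library the CTCFfl/fl mean was 130.8 CPM, or 90.9% of the CTCFfl/+ mean. In LPS/IL4 the clustered sum was 132.8, 105.1 and 111.1 CPM in CTCFfl/fl and 164.5, 171.4 and 122.8 CPM in CTCFfl/+ cells, 76.1% of the CTCFfl/+ mean with overlapping groups.

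**Figure D1:**
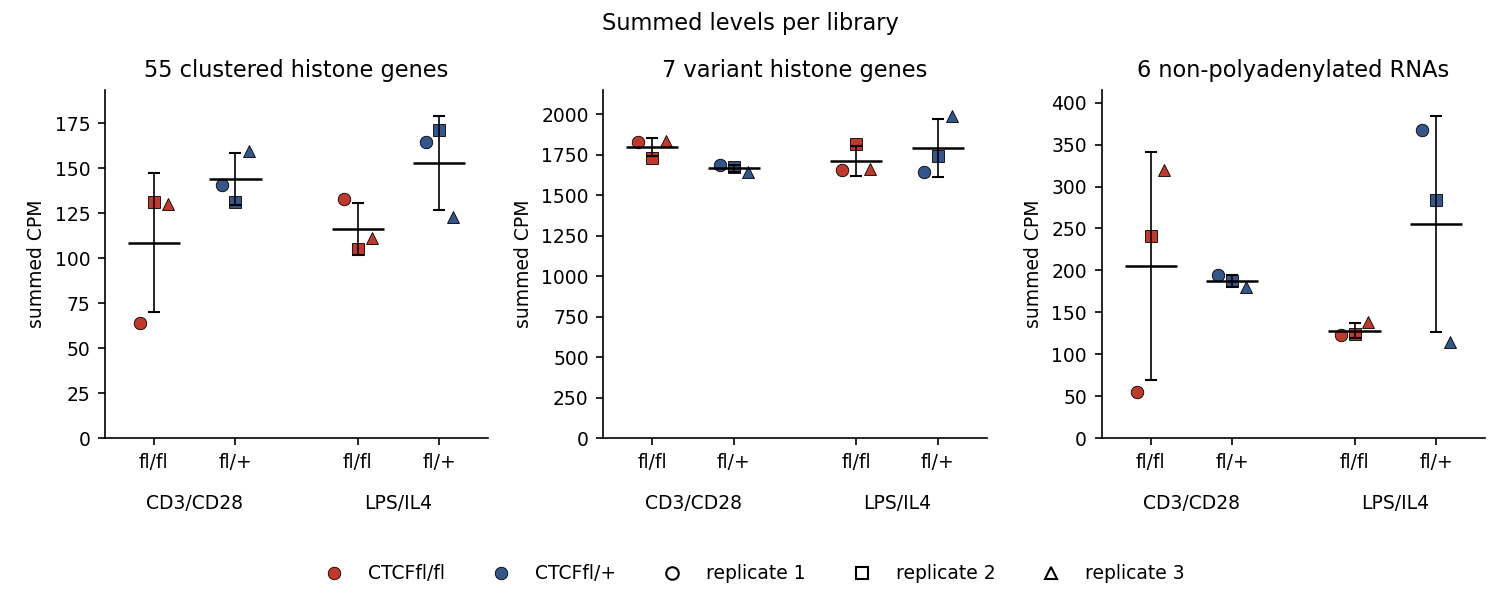
Summed CPM per library (y axis, from 0) of the 55 clustered genes, the 7 variant genes and 6 RNAs without a poly(A) tail, in CTCFfl/fl (red) and CTCFfl/+ (blue) libraries of each culture. Lines and bars are the mean and SD of 3 libraries. In CD3/CD28 the clustered sum of CTCFfl/fl replicate 1 stands at 64.2 CPM, apart from the other 5 libraries, and the variant sums of CTCFfl/fl lie above those of CTCFfl/+.

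Some other RNAs without a poly(A) tail were also low in the library that stood apart. The RNAs Rn7sk, Rn7s1, Rn7s2, Rmrp, Rpph1 and Scarna2 were chosen after their values were seen, so their low values there are only a description. Rn7s1 and Rn7s2 had identical values in every library, so the sum holds the same signal under both names. Together the RNAs summed to 54.4, 241.5 and 319.2 CPM in CTCFfl/fl against 195, 187.3 and 180.1 CPM in CTCFfl/+ libraries of CD3/CD28. In LPS/IL4 they summed to 122.7, 124 and 138 CPM in CTCFfl/fl and 367.5, 284.3 and 114.5 CPM in CTCFfl/+ libraries. CTCFfl/fl replicate 1 of CD3/CD28 and CTCFfl/+ replicate 3 of LPS/IL4 were the lowest of their groups in this sum as in the clustered sum. The other groups went the opposite way. CTCFfl/+ replicate 3 of CD3/CD28 was the lowest of its group in this sum (180.1 CPM) and the highest in the clustered sum (159.6 CPM). So was CTCFfl/fl replicate 1 of LPS/IL4, at 122.7 and 132.8 CPM. The part of unequal poly(A) selection in the clustered values was not tested.

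CTCFfl/fl replicate 1 of CD3/CD28 alone had the lowest value of the 6 libraries for 28 of the 38 tested clustered genes (73.7%), against 17% of all tested genes. It was also the most deeply sequenced library of that culture, with 11227004 reads. In LPS/IL4 no library was the lowest for more than 13 of the 42 tested clustered genes.

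**Figure D2:**
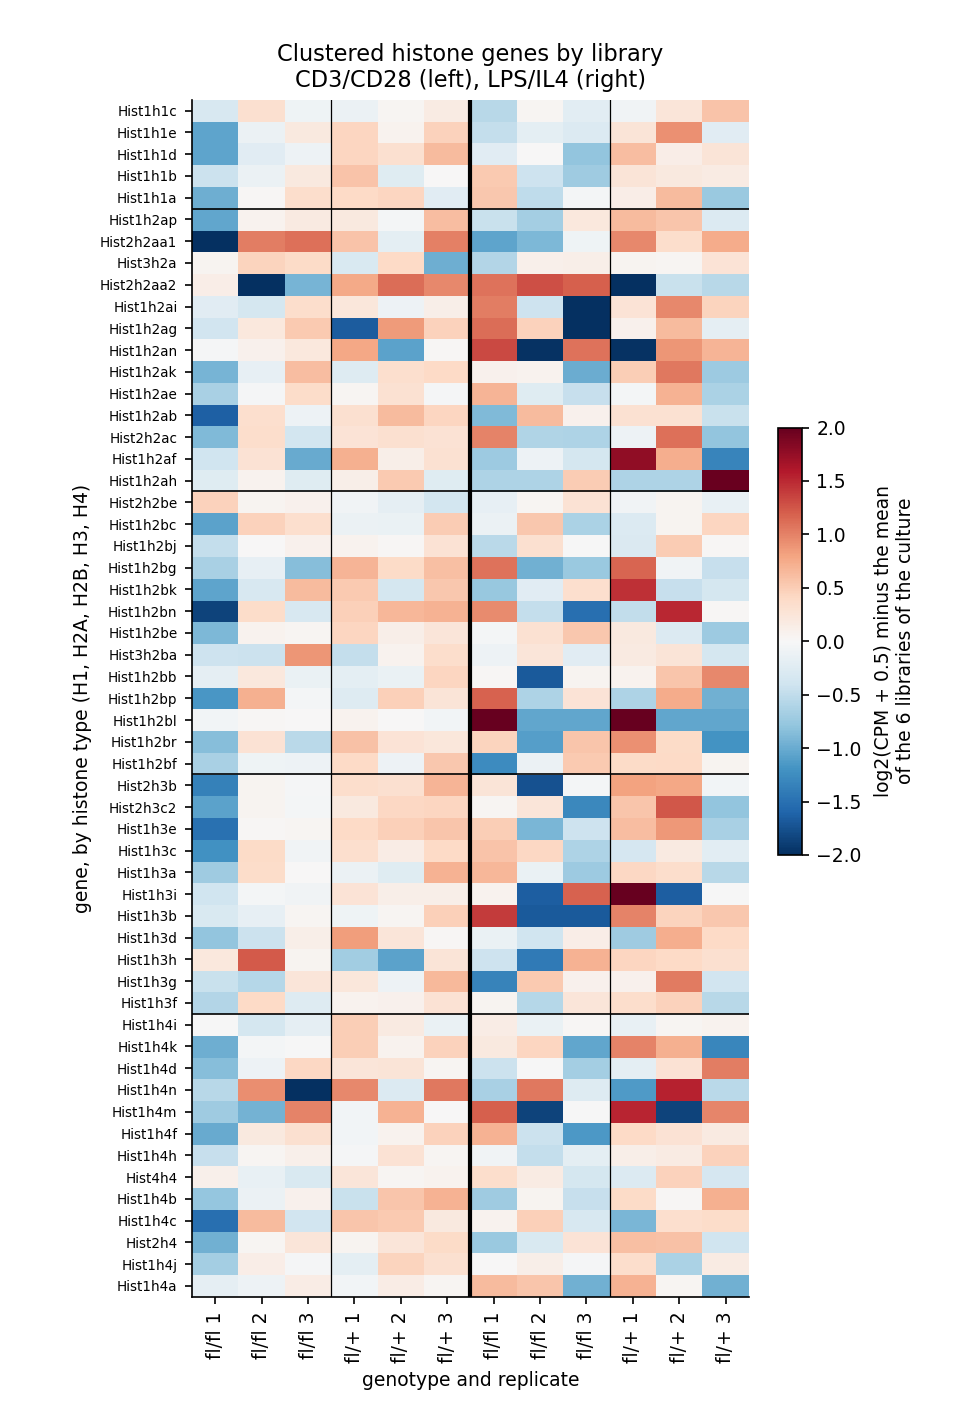
Level of each of the 55 clustered genes (rows, by histone type and then by mean CPM) in each library (columns, CTCFfl/fl left of CTCFfl/+ in each culture), as log2(CPM + 0.5) minus the mean of the 6 libraries of the culture, with the colour limited to -2 and 2. The first column, CTCFfl/fl replicate 1 of CD3/CD28, is blue for most genes of all 5 histone types, and the last row block shows H4 genes.

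Per kilobase of the longest transcript, the order of the members' mean levels over the 12 libraries began with H2afz (282 CPM per kb), H3f3b (205) and H3f3a (183). H2afy (73.6 CPM per kb), H2afv (43.3) and the clustered Hist1h2ap (42.8) followed, then H1f0 (18.3). All other clustered genes had at most 9.61 CPM per kb. H1fx, a linker histone gene, was near the floor with 0.737 CPM per kb.

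In CD3/CD28, 44 members passed the filter on low values (3 or more of the 6 libraries had to reach 1 CPM), and 5 of them were called, that is, had an adjusted p under 0.05 by limma, beside 18.6% of all 12070 tested genes. Of the 6 tested variant genes 2 were called higher and none lower, where 9.88% of all tested genes were called higher. The median log2 fold change of the variant genes was 0.19, against 0.01 over all tested genes. The called genes were H2afv and H3f3a.

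H2afv (ENSMUSG00000041126, chr11:6427229-6444443, minus strand) encodes H2A.Z.2, 1 of the 2 H2A.Z proteins, which replace H2A near gene starts and at regulatory elements. It had 87.9, 83.1 and 83.8 CPM in CTCFfl/fl against 48.0, 58.3 and 60.0 CPM in CTCFfl/+ cells of CD3/CD28, so that the groups lay well apart. Its log2 fold change was 0.62 (SE 0.09, 95% interval 0.42 to 0.82, adjusted p = 0.0019), and it was called whichever library was left out. In LPS/IL4 the values were 79.8, 68.7 and 63.4 CPM in CTCFfl/fl and 67.7, 64.7 and 82.4 CPM in CTCFfl/+ cells, which overlapped, with a log2 fold change of -0.02 (interval -0.26 to 0.23, adjusted p = 0.99). The difference between the cultures was itself called, at 0.64 on the log2 scale (SE 0.16, interval 0.30 to 0.97, adjusted p = 0.025). This call was lost without CTCFfl/+ replicate 1 of CD3/CD28 (adjusted p = 0.065) and without CTCFfl/+ replicate 3 (0.054) or CTCFfl/fl replicate 3 (0.065) of LPS/IL4.

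H2afz encodes the other H2A.Z protein, H2A.Z.1. It had 302, 265 and 317 CPM in CTCFfl/fl and 316, 313 and 307 CPM in CTCFfl/+ cells of CD3/CD28, which overlapped (log2 fold change -0.09, interval -0.24 to 0.07, adjusted p = 0.43). H2afv therefore took 22.5%, 23.9% and 20.9% of the reads of both genes in CTCFfl/fl against 13.2%, 15.7% and 16.4% in CTCFfl/+ cells, with no overlap. In LPS/IL4 its share was 19.9%, 19.3% and 18.4% in CTCFfl/fl and 19.4%, 17.2% and 20.6% in CTCFfl/+ cells.

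H3f3a and H3f3b encode the same protein, H3.3, which is deposited outside S phase at active genes and elsewhere. H3f3a (ENSMUSG00000060743, chr1:180800832-180813943, minus strand) had 535, 566 and 554 CPM in CTCFfl/fl against 483, 488 and 461 CPM in CTCFfl/+ cells of CD3/CD28, with no overlap and a log2 fold change of 0.21 (SE 0.06, adjusted p = 0.026), which was lost without any 1 of the CTCFfl/+ replicates (adjusted p from 0.056 to 0.13). H3f3b had 534, 467 and 537 CPM in CTCFfl/fl and 509, 526 and 496 CPM in CTCFfl/+ cells, which overlapped (log2 fold change 0.00, interval -0.15 to 0.15, adjusted p = 0.98). Thus 1 of the 2 H3.3 genes was called and the other was not, and the difference between the 2 genes was not tested.

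In LPS/IL4 the H3f3a libraries overlapped, at 495, 581 and 531 CPM in CTCFfl/fl and 504, 467 and 582 CPM in CTCFfl/+ cells (log2 fold change 0.05, adjusted p = 0.97). H3f3b had 438, 535 and 473 CPM in CTCFfl/fl and 466, 562 and 649 CPM in CTCFfl/+ cells (log2 fold change -0.21, adjusted p = 0.86). Of the 61-base windows of H3f3a, 9.5% also occur in another gene, and reads from those windows cannot be assigned to it alone. An antisense gene, H3f3aos, overlaps its start, and the kit did not keep the strand.

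H2afy encodes macroH2A1, an H2A with a large extra domain that is known from the inactive X chromosome and silent genes. It had 323, 313 and 303 CPM in CTCFfl/fl against 289, 266 and 283 CPM in CTCFfl/+ cells of CD3/CD28, which did not overlap although the gene was not called (log2 fold change 0.16, adjusted p = 0.08). H1f0 encodes H1.0, the linker histone of resting and differentiated cells. It had 46.5, 38.2 and 40.2 CPM in CTCFfl/fl and 38.8, 23.5 and 35.1 CPM in CTCFfl/+ cells, where the groups overlapped by 1 library (log2 fold change 0.38, SE 0.16, adjusted p = 0.12).

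Of the same genes under LPS/IL4, H2afz had 322, 287 and 281 CPM in CTCFfl/fl and 281, 311 and 317 CPM in CTCFfl/+ cells. H2afy had 284, 309 and 278 CPM in CTCFfl/fl and 292, 297 and 310 CPM in CTCFfl/+ cells. H1f0 had 34.8, 35.5 and 36.8 CPM in CTCFfl/fl and 34.0, 37.8 and 50.4 CPM in CTCFfl/+ cells. All 3 genes overlapped between the genotypes.

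None of the 6 variant genes was called in LPS/IL4 by limma, edgeR or DESeq2, none had an unadjusted p under 0.05, and none had groups that did not overlap. Their median log2 fold change there was -0.04 and ranged from -0.21 to 0.05. H1fx did not pass the filter in either culture. Its 6 libraries of CD3/CD28 held 2.05, 0.61 and 0.94 CPM in CTCFfl/fl and 0.43, 0.47 and 1.03 CPM in CTCFfl/+ cells.

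**Figure D3:**
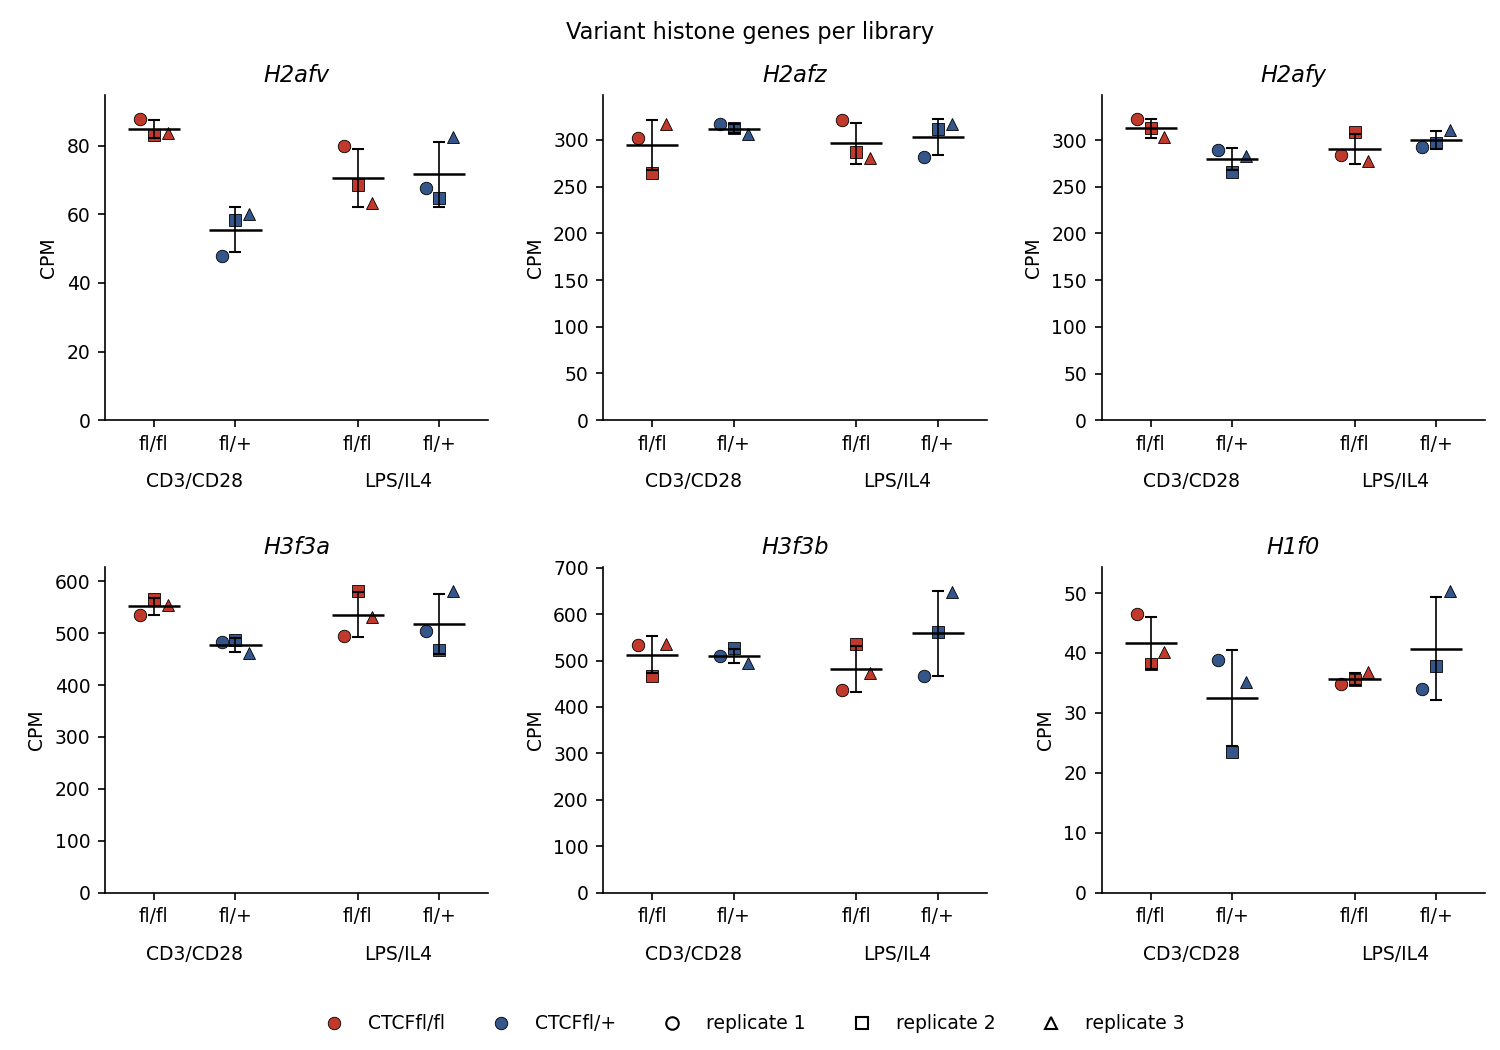
CPM (y axes, from 0) of the 6 tested variant genes in CTCFfl/fl (red) and CTCFfl/+ (blue) libraries of each culture, with the mean and SD of 3 libraries. In CD3/CD28 the CTCFfl/fl points of H2afv, H3f3a and H2afy lie above all CTCFfl/+ points, while those of H2afz, H3f3b and H1f0 overlap with them, as do those of all 6 genes in LPS/IL4.

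Of the 38 clustered genes tested in CD3/CD28, 3 were called lower and none higher. Of all tested genes 8.76% were called lower, so the share of calls was near the background. Because 8 of the 38 passed the filter through CTCFfl/+ libraries (all 3 at 1 CPM or more, against at most 1 CTCFfl/fl library) and none through CTCFfl/fl libraries in this way, the directions over tested genes are only a description. Of the log2 fold changes, 34 of 38 (89.5%) were below 0, where 49.3% of those of all tested genes were. Their median was -0.47 (range -1.90 to 0.58), against 0.01 over all tested genes, and with no filter it was -0.38 over all 55 clustered genes. An unadjusted p under 0.05 was found for 9 of the 38, a smaller share than that of all tested genes (4095 of 12070). The groups did not overlap for 9 genes lower in CTCFfl/fl, where 19.5% of all genes did so, and for 1 gene higher, where 20% did so. Without CTCFfl/fl replicate 1 the median was -0.11 and 1 gene was called, without CTCFfl/fl replicate 2 there were 5 calls, and without any 1 of the CTCFfl/+ replicates there were none.

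In LPS/IL4, 42 clustered genes were tested and none was called, by limma or by edgeR, where 0.0334% of all 11962 tested genes were called, all lower. DESeq2 called 1, and 9 of the 42 had an unadjusted p under 0.05, beside 796 of the 11962 genes. Their median log2 fold change was -0.44 (range -1.36 to 2.38), against -0.00 over all genes, and 35 of 42 (83.3%) were below 0, where 50.4% of all tested genes were. Of the 42, 6 passed the filter through CTCFfl/+ libraries and 1 through CTCFfl/fl libraries, so these directions are only a description. The groups did not overlap for 4 genes lower in CTCFfl/fl, where 5.42% of all genes did so, and for 1 higher, where 5.62% did so.

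By histone type, the medians in CD3/CD28 were -0.40 for the 5 H1 genes, -0.42 for 10 H2A, -0.37 for 8 H2B, -0.70 for 5 H3 and -0.41 for 10 H4 genes. All tested H1, H3 and H4 genes were below 0, as were 8 of the 10 H2A and 6 of the 8 H2B genes. In LPS/IL4 the medians were -0.49 for 5 H1, -0.35 for 9 H2A, -0.15 for 11 H2B, -0.61 for 8 H3 and -0.49 for 9 H4 genes. The 5 types thus had medians of the same sign in both cultures. These signs are only a description, since some genes passed the filter through CTCFfl/+ libraries, among them Hist1h4c, Hist1h4n and Hist4h4 in CD3/CD28. CTCFfl/fl replicate 1 of CD3/CD28 was also alone the lowest library for 28 of the 38 tested clustered genes.

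**Figure D4:**
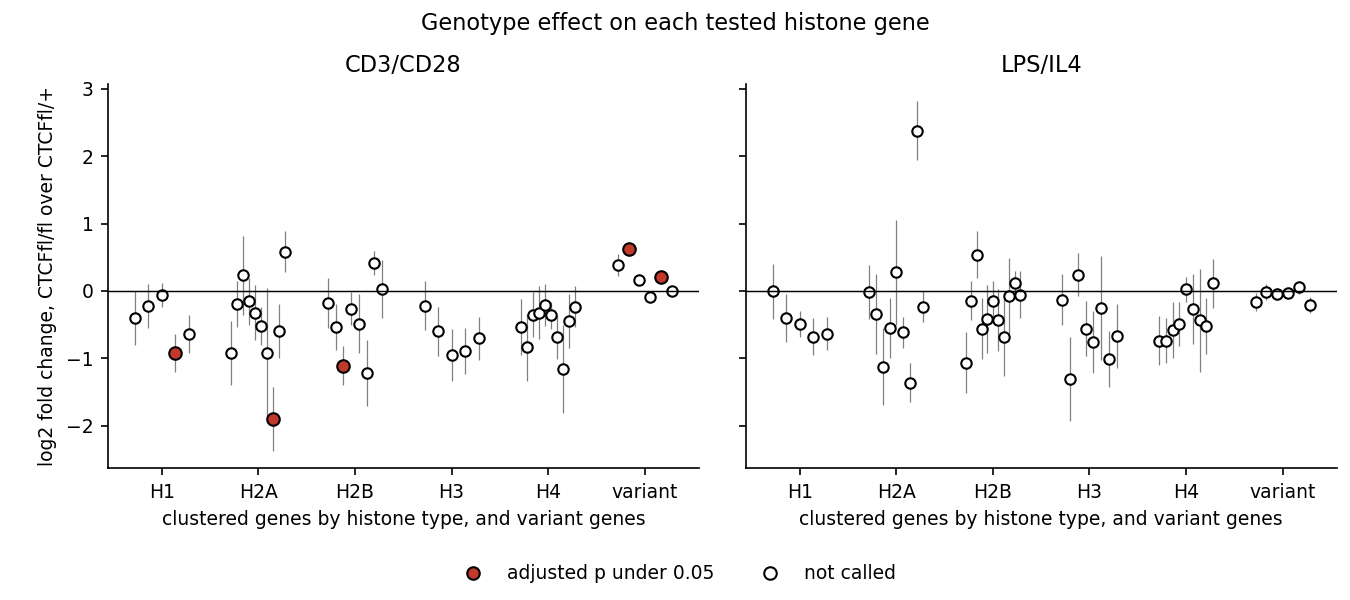
Log2 fold change, CTCFfl/fl over CTCFfl/+, with its standard error (bars) for each tested clustered gene by histone type and each tested variant gene in CD3/CD28 (left) and LPS/IL4 (right). Filled points had an adjusted p under 0.05: 3 clustered genes below 0 and 2 variant genes above 0 in CD3/CD28 and none in LPS/IL4, where the highest point is Hist2h2aa2 at 2.38.

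The summed H1 genes of the clusters, which encode linker histones that bind where DNA enters and leaves the nucleosome, had 12.7, 22.8 and 22.5 CPM in CTCFfl/fl against 25.8, 23.3 and 26.9 CPM in CTCFfl/+ cells of CD3/CD28. In LPS/IL4 they had 16.96, 19.3 and 16.2 CPM in CTCFfl/fl against 24.1, 30.2 and 24.8 CPM in CTCFfl/+ cells. The groups did not overlap in either culture, and without CTCFfl/fl replicate 1 the H1 sum of CD3/CD28 was 89.3% of the CTCFfl/+ mean.

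The 13 genes of the core histone H4 summed to 11.4, 19.6 and 18.4 CPM in CTCFfl/fl against 24.98, 22.9 and 24.1 CPM in CTCFfl/+ cells of CD3/CD28. In LPS/IL4 they summed to 21.8, 19.5 and 14.1 CPM in CTCFfl/fl against 24.6, 24.3 and 22.4 CPM in CTCFfl/+ cells, so the groups did not overlap in either culture. Without CTCFfl/fl replicate 1 the H4 sum of CD3/CD28 was 79.1% of the CTCFfl/+ mean, against 68.6% with it. The H3 sum was 82.0% without that library and 64.1% with it, the H2A sum 98.4% and 78.8%, and the H2B sum 96.3% and 84.1%. The summed H2A and H2B genes overlapped in both cultures, and the H3 sum overlapped in LPS/IL4.

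Hist1h1d (ENSMUSG00000052565, chr13:23553262-23560686, plus strand) encodes the linker histone H1.3. It had 1.16, 2.43 and 2.71 CPM in CTCFfl/fl against 4.16, 3.78 and 4.86 CPM in CTCFfl/+ cells of CD3/CD28, with no overlap. Its log2 fold change was -0.93 (SE 0.28, interval -1.54 to -0.31, adjusted p = 0.042), and -0.63 without CTCFfl/fl replicate 1, where it was no longer called (adjusted p = 0.095), as it was not without any 1 of the CTCFfl/+ replicates (0.08 to 0.15). In LPS/IL4 it had 2.33, 2.80 and 1.40 CPM in CTCFfl/fl against 4.57, 3.12 and 3.46 CPM in CTCFfl/+ cells, again with no overlap but not called (log2 fold change -0.68, adjusted p = 0.66). These values rest on 13 to 52 reads per library in CD3/CD28 and 38 to 126 in LPS/IL4.

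The other H1 genes were not called in either culture. Hist1h1c, which encodes H1.2 and had the most reads of the 5, had 7.29, 11.7 and 8.73 CPM in CTCFfl/fl and 8.47, 9.57 and 10.4 CPM in CTCFfl/+ cells of CD3/CD28 (log2 fold change -0.06, adjusted p = 0.86). Hist1h1e, which encodes H1.4, had 2.93, 6.08 and 7.67 CPM in CTCFfl/fl and 9.05, 6.97 and 9.26 CPM in CTCFfl/+ cells (log2 fold change -0.64, adjusted p = 0.14). Both genes overlapped between the genotypes. In LPS/IL4 Hist1h1c had 6.11, 9.45 and 7.92 CPM in CTCFfl/fl and 8.77, 11.02 and 13.9 CPM in CTCFfl/+ cells (log2 fold change -0.49, adjusted p = 0.66). Hist1h1e had 4.41, 5.45 and 5.16 CPM in CTCFfl/fl and 7.72, 12.35 and 5.36 CPM in CTCFfl/+ cells of that culture (log2 fold change -0.63, adjusted p = 0.63), each time with 1 CTCFfl/+ library inside the CTCFfl/fl range.

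Hist1h2bg (ENSMUSG00000058385, chr13:23571396-23572013, plus strand), an H2B gene, had 0.889, 1.46 and 0.708 CPM in CTCFfl/fl against 3.02, 2.36 and 2.81 CPM in CTCFfl/+ cells of CD3/CD28. The groups did not overlap, and the log2 fold change was -1.11 (SE 0.29, interval -1.75 to -0.47, adjusted p = 0.024). The call held without CTCFfl/fl replicate 2 but not without any other library (adjusted p from 0.051 to 0.09). Hist1h2bg passed the filter through the CTCFfl/+ libraries, with only 1 CTCFfl/fl library at 1 CPM or more, so passing it favoured a difference. The values rest on 10, 12 and 6 reads against 21, 20 and 30 reads, so counting error is large. For the LPS/IL4 cultures the libraries overlapped widely, at 4.03, 0.598 and 0.773 CPM in CTCFfl/fl and 4.28, 1.54 and 1.05 CPM in CTCFfl/+ cells (log2 fold change -0.42, adjusted p = 0.95). Of its 61-base windows 48.7% also occur in other genes, and RSEM divides reads from such windows between genes by an estimate.

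The third called gene, Hist2h2aa2 (ENSMUSG00000063954, chr3:96239749-96240276, minus strand), is an H2A gene whose whole transcript of 528 bases is contained in that of Hist2h2aa1 (ENSMUSG00000064220, chr3:96245497-96246082, plus strand). The model of Hist2h2aa1 has 586 bases, and only its first 58 are its own. The supplementary tables of the study pair these 2 symbols with the identifiers differently, so the copies are defined here by identifier. Antisense genes, Gm20632 and Gm20633, overlap the pair, and an unstranded library does not tell their reads apart. The first 61 bases of both coding sequences, the length of 1 read, are printed with the start codon in capitals to show that a read from either gene is the same.
Hist2h2aa2, chr3:96240190-96240250, minus strand: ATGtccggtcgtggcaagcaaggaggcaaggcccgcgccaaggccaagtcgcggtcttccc
Hist2h2aa1, chr3:96245581-96245641, plus strand: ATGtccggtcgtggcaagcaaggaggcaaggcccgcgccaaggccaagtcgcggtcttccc

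Hist2h2aa2 had 1.78, 0 and 0.59 CPM in CTCFfl/fl against 3.02, 4.02 and 3.55 CPM in CTCFfl/+ cells of CD3/CD28, with no overlap (log2 fold change -1.90, SE 0.47, adjusted p = 0.020). The call was lost without any 1 of the CTCFfl/+ replicates (adjusted p from 0.05 to 0.068). Hist2h2aa2 too passed the filter of CD3/CD28 through the CTCFfl/+ libraries, with only 1 CTCFfl/fl library at 1 CPM or more, so passing it favoured a difference. For the LPS/IL4 cultures the order was the opposite, with 5.81, 6.76 and 6.26 CPM in CTCFfl/fl against 0, 1.69 and 1.51 CPM in CTCFfl/+ cells (log2 fold change 2.38, adjusted p = 0.091). The difference between the cultures was called, at -4.28 (SE 0.75, interval -5.88 to -2.68, adjusted p = 0.0069).

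Hist2h2aa1 had 0, 11.1 and 11.7 CPM in CTCFfl/fl and 7.90, 4.49 and 10.9 CPM in CTCFfl/+ cells of CD3/CD28, and 1.23, 1.42 and 2.87 CPM against 6.45, 4.06 and 5.47 CPM in LPS/IL4. Where 1 copy was at 0 the other was not. The sum of both copies was 1.78, 11.1 and 12.3 CPM in CTCFfl/fl and 10.9, 8.502 and 14.5 CPM in CTCFfl/+ cells of CD3/CD28, which overlapped (log2 fold change -0.73, SE 0.53, adjusted p = 0.36). For the LPS/IL4 cultures the sum was 7.04, 8.18 and 9.13 CPM in CTCFfl/fl and 6.45, 5.74 and 6.99 CPM in CTCFfl/+ cells (log2 fold change 0.32, adjusted p = 0.85). For the sum the difference between the cultures was -1.05 (interval -2.43 to 0.33, adjusted p = 0.36) and not called, so neither call on Hist2h2aa2 held for the pair.

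**Figure D5:**
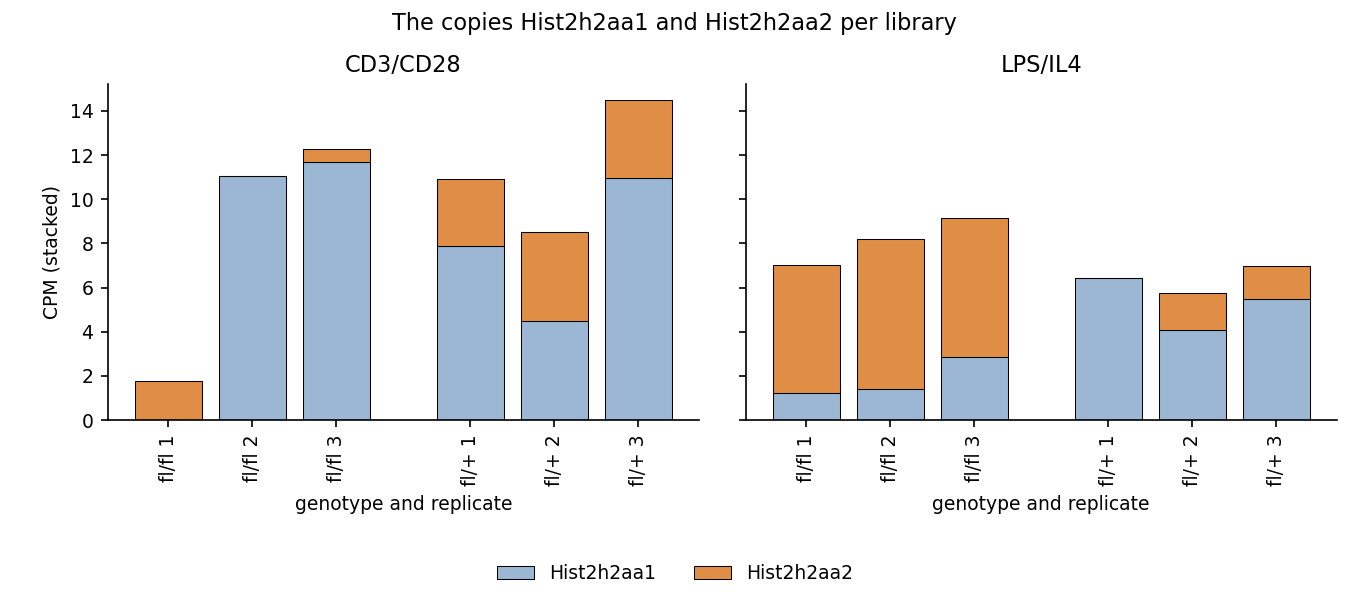
CPM of Hist2h2aa1 (blue) and Hist2h2aa2 (orange), stacked from 0, in each library of CD3/CD28 (left) and LPS/IL4 (right), CTCFfl/fl left of CTCFfl/+. The division between the copies changes from library to library, and the total of CTCFfl/fl replicate 1 in CD3/CD28 is 1.78 CPM.

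Other members also shared reads. Hist1h2ap and 6 further H2A genes of chromosome 13 were near-identical copies, in that over 50% of the 61-base windows of each occurred in another. Hist1h2ap itself, the clustered gene with the most reads, had 9.43, 20.8 and 22.5 CPM in CTCFfl/fl and 22.8, 19.3 and 30.6 CPM in CTCFfl/+ cells of CD3/CD28, which overlapped (log2 fold change -0.52, adjusted p = 0.22). The 7 copies together had 11.7, 25.7 and 27.3 CPM in CTCFfl/fl and 28, 25.3 and 36.2 CPM in CTCFfl/+ cells (log2 fold change -0.54, adjusted p = 0.19). For the LPS/IL4 cultures the 7 copies had 27.4, 17.5 and 27.7 CPM in CTCFfl/fl and 39.2, 41.2 and 25.6 CPM in CTCFfl/+ cells (log2 fold change -0.54, adjusted p = 0.55).

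The H4 pair Hist1h4b and Hist1h4k summed to a log2 fold change of -0.77 in CD3/CD28 (adjusted p = 0.11) and -0.63 in LPS/IL4 (adjusted p = 0.84). Hist1h4n had 0.978, 3.65 and 0 CPM in CTCFfl/fl and 3.73, 1.30 and 4.02 CPM in CTCFfl/+ cells of CD3/CD28, and with its copy Hist1h4m the log2 fold change was -0.81 (adjusted p = 0.15). The 23 tested clustered genes with under 50% of their windows in other genes had a median of -0.32 in CD3/CD28 and 2 calls, and the 15 others had a median of -0.70 and 1 call. In LPS/IL4 these medians were -0.32 for 22 genes and -0.56 for 20 genes.

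Among the remaining clustered genes with the most reads or the largest changes, none was called. Hist2h2be, an H2B gene without a stem-loop in its annotated transcript, had 8.54, 6.33 and 6.49 CPM in CTCFfl/fl against 5.74, 5.31 and 4.58 CPM in CTCFfl/+ cells of CD3/CD28, and was the only clustered gene there whose CTCFfl/fl libraries were all higher (log2 fold change 0.41, adjusted p = 0.13). Hist1h2bn, another H2B gene, had 0, 1.83 and 0.944 CPM in CTCFfl/fl against 2.01, 2.36 and 2.43 CPM in CTCFfl/+ cells (log2 fold change -1.22, adjusted p = 0.11). Hist1h3e, an H3 gene, had 0.534, 2.43 and 2.48 CPM in CTCFfl/fl against 3.30, 3.54 and 3.74 CPM in CTCFfl/+ cells (log2 fold change -0.95, adjusted p = 0.11).

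Hist1h2bn and Hist1h3e did not overlap between the genotypes, with the lowest value in CTCFfl/fl replicate 1. Hist1h4i, the H4 gene with the most reads, had 5.51, 4.26 and 4.84 CPM in CTCFfl/fl and 8.04, 6.38 and 5.05 CPM in CTCFfl/+ cells of CD3/CD28 (log2 fold change -0.36, adjusted p = 0.23). Under LPS/IL4 the same gene had 6.23, 5.04 and 5.67 CPM in CTCFfl/fl and 5.00, 5.78 and 5.86 CPM in CTCFfl/+ cells (log2 fold change 0.02, adjusted p = 0.996).

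The genes were also divided by how far the annotated transcript extends past the stem-loop, since a longer model can include a poly(A) tail. The median log2 fold change in CD3/CD28 was -0.45 for 15 genes with over 100 bases past it, -0.53 for 14 genes with at most 100 and -0.32 for 9 genes with no stem-loop in the model. Under LPS/IL4 the medians were -0.46, -0.49 and -0.27 for 14, 15 and 13 genes in the same order of classes. All 3 classes thus had medians below 0 in both cultures. These medians too are only a description, given the filter and CTCFfl/fl replicate 1 of CD3/CD28.

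Between the cultures, 40 members could be tested for a difference in the effect of genotype, and 2 were called, H2afv and Hist2h2aa2, beside 7.57% of all 11847 genes. H2afv was called with a higher effect in CD3/CD28, as were 3.88% of all genes, and Hist2h2aa2 with a lower one, as were 3.69%. The median difference of the 34 clustered genes was -0.02, that of the 6 variant genes 0.21 and that of all genes 0.02. A bulk library cannot tell fewer cells of a type from less RNA per cell, which holds for all values here, including the share of cells in S phase.

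The promoters of 57 members were matched in RefSeq (GRCm38.p6), as windows of 250 bases before to 50 bases after the start, and searched on both strands. A gene counted once, if any of its windows held the motif. The letters TATAAA, the core of the TATA box, were in 30 of 50 clustered genes (60%), against 15.7% of all 27025 genes with a promoter. CCAAT, bound by NF-Y, was in 41 (82%, against 41.1%). These were all matched H1, H2A, H2B and H3 genes, but only 3 of the 12 matched H4 genes. The octamer ATTTGCAT, bound by OCT factors, was in 9 (18%, against 1.97%), all of them H2A or H2B genes. Of the 7 variant promoters, TATAAA was in 1 (14.3%), CCAAT in 4 (57.1%) and the octamer in 1 (14.3%). The promoter of the variant gene H3f3b held each of these motifs.

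A core of the CTCF motif (CC, any 3 bases, AG, any 2 bases, GGC) was in the promoters of 1 of the 50 clustered genes (2%) and none of the 7 variant genes. The share of all genes with a promoter was 9.84%. The 250 bases before the start of Hist1h2bg and of H2afv, 1 called gene of each class, are printed with the matches in capitals. They show a clustered promoter with an octamer and a TATA box close together before the start and a variant promoter with neither. The pair gives examples and does not stand for the classes.
Hist1h2bg, chr13:23571150-23571399, plus strand: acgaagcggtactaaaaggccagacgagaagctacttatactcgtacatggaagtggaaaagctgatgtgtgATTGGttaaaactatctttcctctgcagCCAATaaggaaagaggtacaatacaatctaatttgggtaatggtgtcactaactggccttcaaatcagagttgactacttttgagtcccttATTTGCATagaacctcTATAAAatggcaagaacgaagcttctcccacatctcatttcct
H2afv, chr11:6444444-6444693, minus strand: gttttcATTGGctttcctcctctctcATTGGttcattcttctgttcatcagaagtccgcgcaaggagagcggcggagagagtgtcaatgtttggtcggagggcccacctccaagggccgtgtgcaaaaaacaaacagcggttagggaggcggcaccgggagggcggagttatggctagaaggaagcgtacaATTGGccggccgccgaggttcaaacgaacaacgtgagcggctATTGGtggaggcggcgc

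In Hist1h2bg the TATA box starts 43 bases and the octamer 59 bases before the start of the transcript, with CCAAT at 150 bases and its reverse complement ATTGG at 178 bases. In H2afv ATTGG occurs at 244, 224, 59 and 17 bases before the start. These are matches of letters and do not show that a factor was bound.

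Genes that act on histones were counted from lists written by hand. Of 4 measured histone genes outside the rule, 1 was called higher in CD3/CD28, Cenpa, the centromeric H3 variant, with 222.5, 206.3 and 199.4 CPM in CTCFfl/fl against 137.4, 133.3 and 152.4 CPM in CTCFfl/+ cells (log2 fold change 0.57, SE 0.07, adjusted p = 0.00098). In LPS/IL4 it had 160.6, 175.7 and 132.7 CPM in CTCFfl/fl against 191.2, 178.3 and 194 CPM in CTCFfl/+ cells (log2 fold change -0.27, adjusted p = 0.61). The groups did not overlap in either culture and lay in opposite order. The difference between the cultures was called, at 0.84 on the log2 scale.

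Of 27 genes for transcription and 3′ end processing of histone mRNAs, 2 were called lower and none higher in CD3/CD28, a share near the 8.76% of all tested genes called lower, with a median of -0.12. They were Ncbp1, a subunit of the nuclear cap-binding complex (log2 fold change -0.28, adjusted p = 0.029), and Casp8ap2, known as FLASH, which takes part in cutting histone pre-mRNA (-0.26, adjusted p = 0.039). Npat, the coactivator of the clusters, was not called (-0.25, adjusted p = 0.071), nor was Lsm1, which takes part in the decay of histone mRNAs (-0.33, adjusted p = 0.065). Slbp, which binds the stem-loops printed above, had a log2 fold change of -0.08 (adjusted p = 0.53).

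Of 42 histone chaperones and exchange factors, 9 were called lower and none higher in CD3/CD28, beside 8.76% of all tested genes called lower and 9.88% called higher, with a median of -0.12. Ncl, nucleolin, was the first of them by p-value (log2 fold change -0.53, adjusted p = 0.0019), then Set, a chaperone of the NAP family (-0.52, adjusted p = 0.0030), Ipo4, which carries H3 and H4 into the nucleus (-0.51, adjusted p = 0.0081), and Supt16, a subunit of FACT (-0.33, adjusted p = 0.0098). Of 39 S phase genes 4 were called lower, among them Tyms, Cdc25a and Ccne2, and 1 higher, Rfc2, with a median of -0.09, and the share called lower was near the 8.76% of all tested genes. Summed, the S phase genes had 4124 to 4844 CPM in CTCFfl/fl and 4771 to 4984 CPM in CTCFfl/+ cells, which overlapped. With LPS/IL4 limma called no gene of these 4 lists, and 1 of the 4 other histone genes, 2 of the 27, 3 of the 42 and 0 of the 39 genes had an unadjusted p under 0.05.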

How the data were processed

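RNA of sorted hCD2+ B cells was sequenced as 61-base single reads from libraries made with an unstranded kit after 2 rounds of poly(A) selection. The authors demultiplexed with CASAVA 1.8, trimmed with Cutadapt, quantified with RSEM 1.17 against GRCm38 and normalized with edgeR. The deposited table holds these normalized CPM, without raw counts. Because RSEM divides reads of near-identical genes by an estimate, copies were also summed.

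All values of a library were whole multiples of its smallest step (100% within 0.01 of a read), and these multiples were used as recovered reads in edgeR 4.0.16 and DESeq2 1.42.0, as alternatives. Since most genes have nearly equal means in both cultures, levels were not interpreted between cultures, and the recovered reads may not be those first counted. Counting error is largest for members with few reads: 3 reads correspond to 0.267 to 0.431 CPM per library in CD3/CD28 and 0.108 to 0.127 CPM in LPS/IL4. Counting error is not the only error, as reads are not independent molecules.

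The test was limma 3.58.1 in R 4.3.3 on log2(CPM + 0.5) with an intensity trend, over all genes that reached 1 CPM in 3 or more of a culture's 6 libraries. The adjustment was that of Benjamini and Hochberg over all these genes, and calls had an adjusted p under 0.05. The fold changes understate those of low genes because of the pseudocount. For a member that passed the filter through all 3 libraries of 1 genotype and at most 1 of the other, passing it favoured a difference. In CD3/CD28 this bears on 8 clustered genes, Hist1h2bg and Hist2h2aa2 among them, all through CTCFfl/+, and in LPS/IL4 on 6 through CTCFfl/+ and 1 through CTCFfl/fl. A fit of all 12 libraries tested the difference between cultures. The scripts were tested on simulated data.

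Symbols came from GENCODE M21 and promoters from RefSeq. The members and lists were chosen with earlier results of these data known. The text names library by library every called member, the variant genes, and up to 6 clustered genes each by mean CPM and by size of change, and gives up to 4 genes of each list by p-value. Alternatives were the pseudocount, normalization, the filter, no trend, a replicate block, edgeR, DESeq2, 1 fit of all libraries, summed copies and leaving out each library. No p was computed for sums or lists, whose members share libraries.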

Additional observations from a re-analysis of the deposited data

Results flagged for a closer look

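For 2 members the genotype effect was not the same in both cultures, by the test of that difference. For H2afv the log2 fold change in CD3/CD28 exceeded that in LPS/IL4 by 0.64, with the CTCFfl/fl libraries all higher in CD3/CD28 and overlapping with CTCFfl/+ in LPS/IL4. For Hist2h2aa2 the difference was -4.28, with all CTCFfl/fl libraries lower in CD3/CD28 and all higher in LPS/IL4, and it was not called once its reads were summed with those of Hist2h2aa1.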

How the results depend on the processing

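Of the called members, H2afv in CD3/CD28 was called in 18 of 18 alternatives, with adjusted p from 1.3e-06 to 0.028, and H3f3a in 12 of 18 (0.008 to 0.13). Hist2h2aa2 was called in 12 of 16 (0.005 to 0.068), Hist1h2bg in 11 of 17 (0.015 to 0.13) and Hist1h1d in 8 of 17 (0.027 to 0.15). Between the cultures, H2afv was called in 18 of 23 (0.0049 to 0.068) and Hist2h2aa2 in 20 of 21 (0.0028 to 0.086). No called result changed direction. The 3 clustered calls of CD3/CD28 became 0 with a mean of at least 5 CPM and 1 with no intensity trend, and 0 to 5 when 1 library was left out: 1 without CTCFfl/fl replicate 1, 5 without CTCFfl/fl replicate 2 and 0 without any CTCFfl/+ replicate. The 2 variant calls became 1 with no trend, with the replicate block and with 1 fit of 12 libraries, and 1 to 2 with 1 library left out. The 0 clustered calls of LPS/IL4 became 1 with a pseudocount of 1, with the replicate block and with DESeq2, and 0 to 2 with 1 library left out, while the variant calls stayed at 0 in every alternative. The 2 calls between cultures became 1 with the 5 CPM filter, no trend, the replicate block, DESeq2 or summed copies, and 1 to 3 with 1 library left out. Ctcf in LPS/IL4 kept its log2 fold change of -1.01 with no trend but was not called (adjusted p = 0.13). The causes were not tested. The correlations of the deviations of same-numbered libraries from their group means were 0.023, -0.089 and 0.031 in CD3/CD28 and 0.213, 0.031 and -0.127 in LPS/IL4. The highest of all pairs in LPS/IL4 was 0.217, for CTCFfl/fl replicate 2 and CTCFfl/+ replicate 3. Deviations from a mean of 3 libraries depend on each other, so these values cannot exclude that replicate numbers pair the libraries.

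The median of the clustered genes in CD3/CD28 was -0.11 without CTCFfl/fl replicate 1 and -0.68 without replicate 3. In LPS/IL4 it was -0.56 with a pseudocount of 0.1, -0.59 with edgeR or DESeq2 and -0.20 without CTCFfl/fl replicate 3. Most clustered genes had under 5 CPM, so that a few reads decide their values, and poly(A) selection limits what they measure.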
